A study of Mus musculus with 10 samples.

Results

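The expression of 8 genes of the extracellular matrix was followed through microglia from 5 settings: *Sparc*, *Olfml3*, *Ecm1*, *Fn1*, *Mmp12*, *Mmp14*, *Timp2* and *Thbs1*. These 8 members were chosen by name among the 18292 gene symbols in the count tables, and *Sparc* was singled out because its transcripts stayed in brain slices and were lost *in vitro*. The level of *Sparc* in the 5 groups is therefore given as a description, with no test, and tests are given for the other 7 genes. All 8 passed the filter on low counts and were among the 12157 genes fitted. That filter ran over all groups together. *Ecm1* (8 and 3 counts in the adult libraries) and *Fn1* (3 and 3) passed it through the cultures. For them the filter favours a rise over adult, and their tests against adult carry that limit. A gene without a count in a table was taken as 0.

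Microglia were sorted as live CD11b high, CD45 intermediate cells from C57BL/6 mice and profiled as 10x Genomics 3' single cell libraries, 2 for each of 5 groups. Adult microglia came straight from the brains of adult mice. *In vitro* microglia were collected from the medium of mixed glial cultures, which were started from newborn cortex and kept for 3 weeks in serum. Slice microglia came from brain slices of newborn pups that had been cultured for 1 day, 1 week or 3 weeks in medium with horse serum and added hPDGF, and several slices could be pooled for 1 isolation. No group carried a transgene or a drug treatment. The adult group differs from the cultures in the age of the donor as well as in culture, and these cannot be told apart here.

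The matrix around brain cells is a mesh of hyaluronan, proteoglycans and glycoproteins that is rebuilt by enzymes. Matricellular proteins such as SPARC, ECM1 and thrombospondin 1 are secreted into it and change how cells bind and signal without forming its scaffold, whereas fibronectin is itself a scaffold that integrins grip. Matrix metalloproteinases such as MMP12 and MMP14 cut it and are held back by tissue inhibitors such as TIMP2. *Sparc* and *Olfml3* are known as genes that microglia of the healthy brain express strongly, while *Fn1* and *Mmp12* are better known from macrophages outside the brain.

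The 10 libraries held between 61 cells (slice 1 week replicate 2) and 3799 cells (adult replicate 1), 19059 cells in all, with 385373 to 39689540 unique molecular identifiers (UMIs, each standing for 1 captured transcript). At slice 1 week 148 and 61 cells were kept. The paper, which also set outlier cells apart by t-SNE, counts fewer microglia at that time. The 1 week values here can thus include cells that the study left out. All 148 cells of replicate 1 held 2 or more marker genes of another cell type. The median depth of a cell was between 1858 UMIs (adult replicate 2) and 13966 UMIs (*in vitro* replicate 2). Any pair of libraries shared at most 21 cell barcodes. The microglia markers *P2ry12*, *Tmem119* and *Siglech* were present in the adult and slice libraries. Of the 8 markers, *Fcrls*, *C1qa* and *Csf1r* were higher *in vitro* than at slice 1 day in both libraries, *P2ry12*, *Cx3cr1*, *Gpr34* and *Siglech* were lower, and *Tmem119* overlapped. *In vitro*, *P2ry12* was at 55.0 and 38.2 CPM (counts of a gene scaled to a common library total), against 78.3 or more elsewhere, and *Siglech* at 0.353 and 0.0504 CPM, against 30.7 or more elsewhere. The 8 microglia markers summed to 35104 to 35900 CPM in adult, 8673 to 10085 *in vitro* and 5239 to 18904 in slices. Neutrophil markers, 10 genes such as *S100a8*, summed to 7805 to 22840 CPM at 1 day and 968 to 40767 at 1 week, against at most 8.48 elsewhere, and 7 markers of border macrophages such as *Mrc1* to 2228 to 2321 *in vitro*, against at most 331 in the other groups. Of the 8 fibroblast and mural markers, which stand for the cells that make much of the matrix elsewhere, 4 were listed at all, and their sum was between 0.128 and 8.33 CPM, with *Col1a1* at 0 in 8 libraries and at most 0.0448 in the others. Endothelial markers, another source of *Sparc*, summed to 34.9 to 35.6 CPM in adult and 4.13 to 31.4 in the cultures. In adult nearly all of this was *Pecam1* (31.5 and 31.6 CPM). The other listed endothelial markers were at 2.58 CPM or less there, with *Cldn5* at 0 in both adult libraries. *Pecam1* was between 1.93 and 22.7 CPM in the cultures. The 8 astrocyte markers, whose cells also make *Sparc*, summed to 149 to 154 CPM in adult, 33.6 to 34.1 at slice 3 weeks, 22.2 to 25.9 at 1 week, 7.44 to 15.02 at 1 day and 5.04 to 5.62 *in vitro*. In adult and at 3 weeks nearly all of this was *Slc1a3* (147 CPM or more in adult, then 30.8 and 30.9), with *Aqp4* at 0.565 CPM in adult replicate 1 and at 0 elsewhere. The part of endothelial cells and astrocytes in the values of *Sparc* was not tested.

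*Sparc* encodes a collagen-binding matricellular glycoprotein. In CPM scaled by TMM (the trimmed mean of M values, which corrects for the make-up of each library), its level was 2858 and 2249 in the adult libraries. In slices it was 408 and 279 on day 1, 734 and 878 after 1 week, and 2225 and 2282 after 3 weeks. *In vitro* it was 1.57 and 0.168, from 49 and 6 UMIs. At 3 weeks 1 slice library lay inside the range of the adult pair and the other just below it, the 3 slice times did not overlap, and both *in vitro* libraries were below all others. The group means as a share of adult were 13.4% at 1 day, 31.6% at 1 week, 88.2% at 3 weeks and 0.0341% *in vitro*. Against adult, the log2 fold change was −0.18 at slice 3 weeks and −11.54 *in vitro*. Without cells with markers of another type, which removed 90.5% and 92.5% of *in vitro* cells, it was −8.85 *in vitro*, and at slice 1 day −2.07 in place of −2.90. Within the libraries that share a study label, the log2 ratio of slice 3 weeks to adult was −0.36 under the first label and 0.02 under the second. Without scaling for depth, as UMIs per cell, the log2 fold change was −1.42 at slice 1 day, −0.52 at 1 week and 0.88 at 3 weeks, the last on the other side of 0, while the median of all genes at 3 weeks was 1.05 on that scale.

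**Figure D1:**
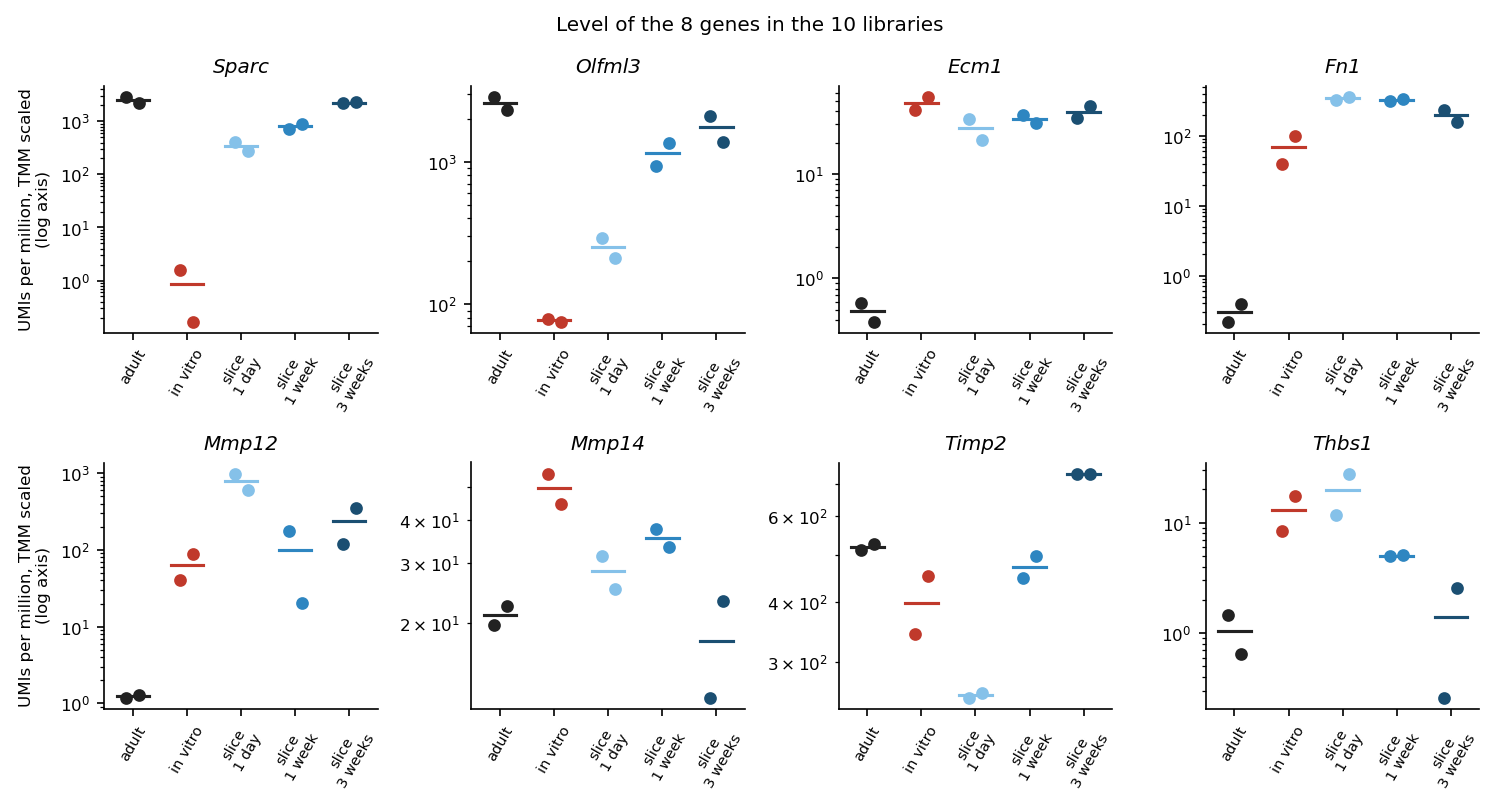
Level of the 8 genes in each of the 10 libraries, in TMM-scaled CPM, on a log axis whose range differs between panels. Points are libraries, 2 per group, and lines are group means. By group mean *Sparc* and *Olfml3* were highest in adult and lowest *in vitro*, and *Ecm1*, *Fn1* and *Mmp12* were lowest in adult.

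The 55 UMIs of *Sparc* found *in vitro* came from few cells. In replicate 1, 49 UMIs lay in 17 of 2417 cells (0.703%, 95% exact interval 0.41 to 1.12%), with up to 10 in 1 cell, and in replicate 2, 6 UMIs lay in 4 of 2682 cells (0.149%, 0.0407 to 0.381%). These intervals cover counting error only. Of the 17 cells, 12 also held *P2ry12*, 7 *Tmem119* and 3 *Siglech*, shares of 70.6%, 41.2% and 17.6%, against 47.0%, 34.5% and 0.292% of the other cells of that library. The 17 cells were as deep as the others, with medians of 13084 and 12858 UMIs. All 4 cells of replicate 2 held *P2ry12*, against 38.3% of the others, and none held *Siglech*.

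Adult and slice 3 weeks cells differed in how *Sparc* was spread over them, although their means were close. Cells were compared after each had been thinned to 1800 UMIs. The median was 5 and 4 UMIs per cell in the adult libraries and 3 in both slice 3 weeks libraries. The share of cells without a *Sparc* UMI was 1.03% and 1.99% in adult and 18.7% and 16.5% at slice 3 weeks. Cells under 1800 UMIs were left out, so adult replicate 2 kept 1909 of its 3527 cells. At 1000 UMIs, which 3322 of them reached, a *Sparc* UMI was found in 94.1% and 88.9% of adult cells and in 71.9% and 75.1% at slice 3 weeks. The upper end did not fall with the median, and the 95th percentile was 11 and 9 UMIs in adult and 11 in both slice libraries. The variance over the mean was 1.48 and 1.38 in adult and 3.47 and 3.21 in slices, where a value of 1 is what random sampling of equal cells gives. *Sparc* was found in 99.5% and 96.0% of adult cells before thinning. The highest cell then held 46 and 32 *Sparc* UMIs in adult and 90 and 85 in slice 3 weeks. At 1 day, 36.8% and 31.9% of thinned cells had a *Sparc* UMI, and at 1 week 43.2% and 59.6%. As a guide to free RNA, 8.51% and 8.57% of thinned neutrophil-like cells at 1 day had one, against 39.8% and 34.5% of the other cells of the same libraries. Before thinning these shares were 16.1% and 33.3% against 63.9% and 73.6%, with median depths of 2336.5 and 5233 against 6832.5 and 8815 UMIs. In slice 1 week replicate 1 the thinned share was higher in both classes, 26.1% of 23 neutrophil-like cells against 46.6% of the others, with median depths of 4412 and 7291 UMIs. Neutrophil-like cells are those with 5% or more of their UMIs in the neutrophil markers.

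**Figure D2:**
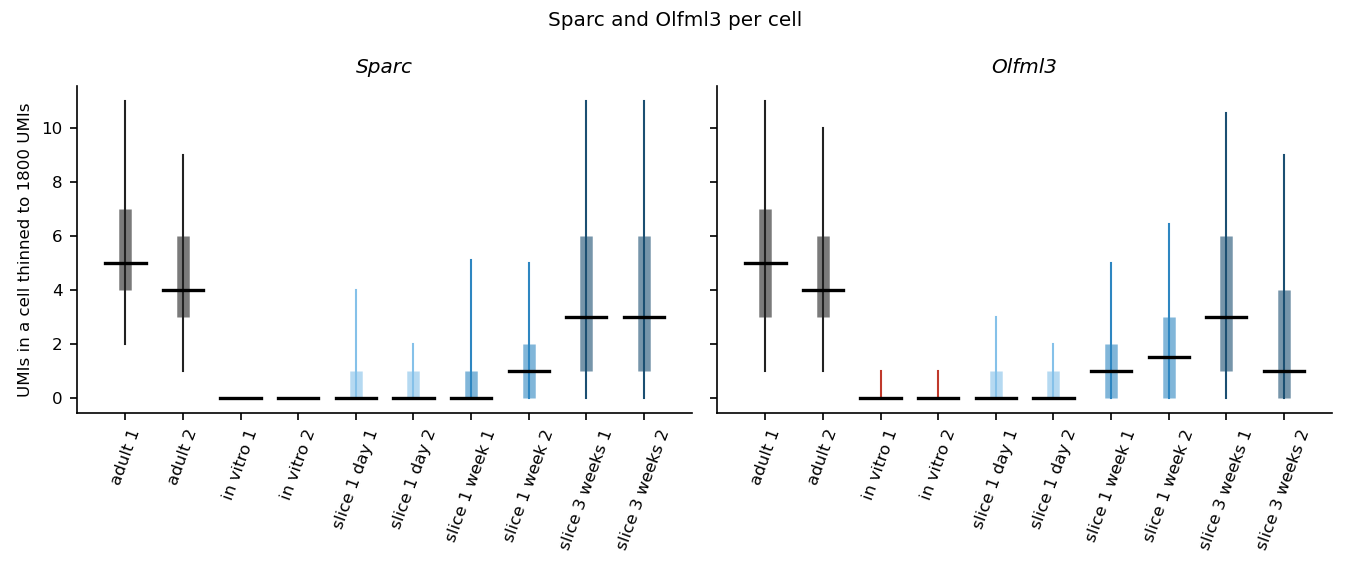
UMIs of *Sparc* and *Olfml3* per cell in cells thinned to 1800 UMIs, by library. Black bars are medians, boxes span the 25th to 75th percentiles and lines the 5th to 95th. By the 95th percentile, slice 3 weeks cells reached as high as adult cells for *Sparc*. For *Olfml3* it was 10.55 and 9 UMIs at slice 3 weeks against 11 and 10 in adult. For both genes the lines at slice 3 weeks also reached down to 0.

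*Olfml3* encodes a secreted olfactomedin-like glycoprotein and followed the same order of groups as *Sparc*, with a smaller loss *in vitro*. Its level was 2829 and 2306 CPM in adult, 2093 and 1383 at slice 3 weeks, 939 and 1348 at 1 week, 293 and 212 at 1 day, and 78.4 and 75.5 *in vitro*. No 2 neighbouring groups in that order overlapped. Against adult, *Olfml3* was lower *in vitro* by edgeR's quasi-likelihood test (log2 fold change −5.06 ± 0.29, SE, adjusted p = 3.82e-07), at slice 1 day (−3.35 ± 0.27, adjusted p = 6.06e-06) and at 1 week (−1.17 ± 0.25, adjusted p = 0.00593). At slice 3 weeks the value was −0.56 ± 0.25 and did not pass (adjusted p = 0.0932). A fall was called in 3 of 23 alternatives, namely with the study label as a covariate (−0.59, adjusted p = 0.0451), by library size alone (−0.76, adjusted p = 0.0393) and leaving out slice 3 weeks replicate 1 (−0.85, adjusted p = 0.0287), with adjusted p from 0.0214 to 0.528 over all of them. The call at 1 week was lost without slice 1 week replicate 1 (−0.90, adjusted p = 0.101), without cells with markers of another type (−0.92, adjusted p = 0.147) and as UMIs per cell not scaled for depth (−0.019, adjusted p = 0.974), with 19 of 22 alternatives calling it. As UMIs per cell not scaled for depth, *Olfml3* at slice 3 weeks lay above adult (0.53).

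Both genes were higher at each later slice time. From 1 day to 3 weeks in slices, *Olfml3* rose by 2.79 ± 0.26 on the log2 scale (adjusted p = 0.000127), and the value for *Sparc* was 2.72. *In vitro* against slice 3 weeks, *Olfml3* was lower (−4.50 ± 0.28, adjusted p = 2.38e-06), and the value for *Sparc* was −11.36. *In vitro*, 46.8% and 47.7% of cells still held an *Olfml3* UMI at their full depth, and the mean after thinning was 0.145 and 0.116 UMIs per cell, against 5.60 and 4.71 in adult.

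Within slices, *Sparc* and *Olfml3* were higher in cells that held a UMI of *P2ry12*, a receptor for nucleotides that marks microglia at rest. At 3 weeks, thinned cells with *P2ry12* (696 and 2004 cells) had means of 5.09 and 5.49 *Sparc* UMIs, against 2.27 and 2.41 in those without (434 and 1685 cells). For *Olfml3* the means were 4.77 and 3.62 against 2.13 and 1.26. The same direction was found in all 6 slice libraries for both genes, with the smallest gap in slice 1 day replicate 2 (0.708 against 0.478 for *Sparc*). *Fn1* went the other way at 3 weeks, with 0.292 and 0.160 UMIs in cells with *P2ry12* against 0.535 and 0.293 without, and both ways among the earlier libraries. *Mmp12* was lower in cells with *P2ry12* in 5 of the 6 libraries and higher in slice 1 day replicate 2. Cells of 1 library are not replicates, and these values are descriptions.

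**Figure D3:**
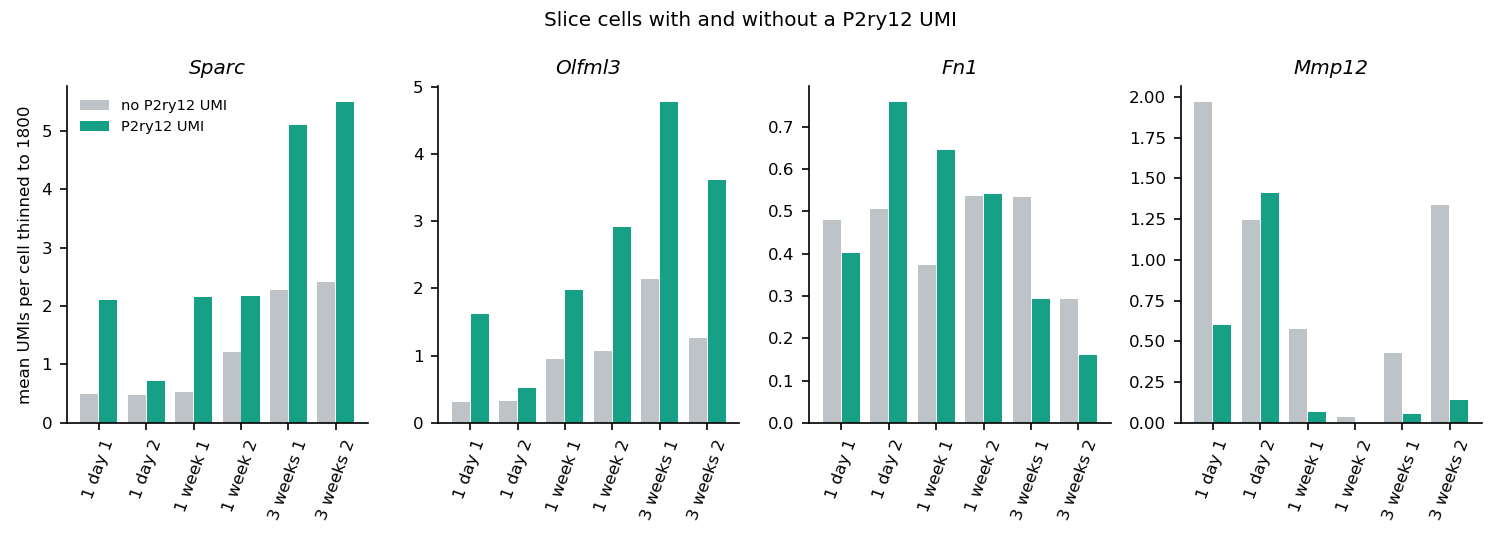
Mean UMIs of 4 genes per cell thinned to 1800 UMIs, in slice cells with and without a *P2ry12* UMI, by library (vertical scales differ). *Sparc* and *Olfml3* were higher in cells with *P2ry12* in all 6 libraries, and *Mmp12* was lower in 5 of 6.

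*Ecm1* encodes extracellular matrix protein 1, a secreted glycoprotein. It was close to absent in adult cells, at 0.586 and 0.386 CPM from 8 and 3 UMIs. It was 40.7 and 54.5 *in vitro*, and in slices 33.5 and 21.1 on day 1, 36.6 and 30.7 after 1 week, then 34.2 and 44.6 after 3 weeks. Every culture library was above both adult libraries, and each culture group overlapped its neighbour in the order of means. Against adult the log2 fold changes were 6.52 ± 0.37 *in vitro* (adjusted p = 3.28e-07), 5.68 ± 0.38 at 1 day (adjusted p = 2.22e-06), 6.05 ± 0.46 at 1 week (adjusted p = 1.48e-05) and 6.25 ± 0.37 at 3 weeks (adjusted p = 2.12e-06). Since the adult count is small, the pooled ratio of *in vitro* to adult was 93.6 with a counting interval of 52.2 to 188. *In vitro* and slice 3 weeks were not shown to differ (0.27 ± 0.22, adjusted p = 0.376). A higher level *in vitro* was called in 1 of 23 alternatives, as UMIs per cell not scaled for depth (1.36, adjusted p = 0.00058). In cells thinned to 1800 UMIs, 5.83% and 7.83% of *in vitro* cells and 5.66% and 6.64% of slice 3 weeks cells held *Ecm1*, against 0.148% and 0.105% of adult cells. At full depth, which was greater *in vitro*, the shares were 32.4% and 42.7%, 17.6% and 18.1%, and 0.211% and 0.0851%. In the neutrophil-like cells of slice 1 day it was 100.6 and 30.1 CPM, not below the 32.2 and 20.8 of the other cells. Without the neutrophil-like cells the log2 fold change at 1 day was 5.58 and still called. In slice 1 week replicate 1 *Ecm1* was lower in the neutrophil-like cells, at 7.06 CPM from 1 UMI, against 38.3 in the others.

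*Fn1*, which encodes fibronectin, was close to absent in adult and rose in every culture. The adult libraries held 3 UMIs each (0.22 and 0.386 CPM), in 3 cells each. At slice 1 day the level was 329 and 355, at 1 week 313 and 340.3, at 3 weeks 234 and 155, and *in vitro* 39.7 and 98.1. The slice libraries were all above the *in vitro* ones, and those at 1 day and 1 week overlapped. Against adult the log2 fold change was 10.20 ± 0.59 at 1 day (adjusted p = 1.27e-06), 10.13 ± 0.60 at 1 week (adjusted p = 2.47e-06), 9.38 ± 0.59 at 3 weeks (adjusted p = 2.75e-06) and 7.89 ± 0.58 *in vitro* (adjusted p = 1.92e-06). With so few adult UMIs the pooled ratio at 1 day was 1241, with a counting interval of 569.9 to 3384. *Fn1* was lower *in vitro* than at slice 3 weeks (−1.50 ± 0.35, adjusted p = 0.00688), in 20 of 23 alternatives (adjusted p up to 0.297 over all of them). Its fall from 1 day to 3 weeks did not pass (−0.81 ± 0.34, adjusted p = 0.0957), and was called in 5 of 23 alternatives, with values from −1.24 to −0.11 and adjusted p from 0.000353 to 0.945 over all of them. Monocyte markers, 8 genes such as *Ccr2*, summed to 210 to 414 CPM at 1 day, 33.7 and 898 at 1 week, 29.0 to 39.3 *in vitro* and 8.57 to 17.2 at 3 weeks. The part of monocytes in the values of *Fn1* was not tested. In cells thinned to 1800 UMIs, *Fn1* was held by 24.8% and 31.4% at 1 day and by 22.7% and 14.5% at 3 weeks (45.4% and 66.0%, and 46.0% and 29.5%, at full depth). Of the thinned neutrophil-like cells at 1 day 10.6% and 5.71% held it, against 26.3% and 34.3% of the other cells.

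*Mmp12* encodes macrophage metalloelastase. It was 1.17 and 1.29 CPM in adult, 985 and 612 at slice 1 day, 178 and 20.5 at 1 week, 119.5 and 351 at 3 weeks, and 40.3 and 87.3 *in vitro*. All culture libraries were above adult and both 1 day libraries were above all others, while slice 1 week overlapped both slice 3 weeks and *in vitro*, which did not overlap each other. Against adult it rose in each culture by log2 fold changes of 9.34 ± 0.99 at 1 day (adjusted p = 3.28e-05), 6.49 ± 0.94 at 1 week (adjusted p = 0.000639), 7.58 ± 0.94 at 3 weeks (adjusted p = 0.000167) and 5.70 ± 0.90 *in vitro* (adjusted p = 0.000353). The 1 week call rests on replicate 1 and was lost without it (4.09, adjusted p = 0.137), where replicate 2 held 8 UMIs in 2 cells. *Mmp12* was lower *in vitro* than at slice 3 weeks (−1.89 ± 0.66, adjusted p = 0.0451), but 11 of 23 alternatives did not call it, with log2 values from −2.47 to −0.75. The fall from 1 day to 3 weeks was −1.76 ± 0.66 and did not pass (adjusted p = 0.0668), though it did in 7 of 23 alternatives, with adjusted p up to 0.245.

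The transcripts of *Mmp12* were gathered in few cells. The 5% of cells with most of them held 74.1% and 70.5% of its UMIs at slice 1 day, 96.1% and 92.0% at 3 weeks and 97.9% and 95.1% *in vitro*, whereas the same measure for *Timp2* was 15.0 to 24.7% in the culture libraries. A single cell held as many as 572 *Mmp12* UMIs at 1 day, 370 at 3 weeks and 383 *in vitro*. At 1 week, 1 cell of replicate 1 held 132 of the 188 UMIs of the group. Cells with 10 or more *Mmp12* UMIs after thinning, a limit chosen after the values were seen, numbered 23 and 23 at 1 day and 6 and 69 at 3 weeks, and held 72.2% and 59.3% and then 72.4% and 74.6% of its thinned UMIs. At 3 weeks these cells had less *Sparc* (1.17 and 1.83 UMIs against 4.02 and 4.13) and less *Olfml3* (0.333 and 0.377 against 3.77 and 2.58) than the rest, and *P2ry12* was found in 16.7% and 7.25% of them against 61.8% and 55.2%. At 1 day the *Sparc* means were 0.87 and 1.26 in these cells against 0.797 and 0.487, so the lower *Sparc* was not seen at that time.

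**Figure D4:**
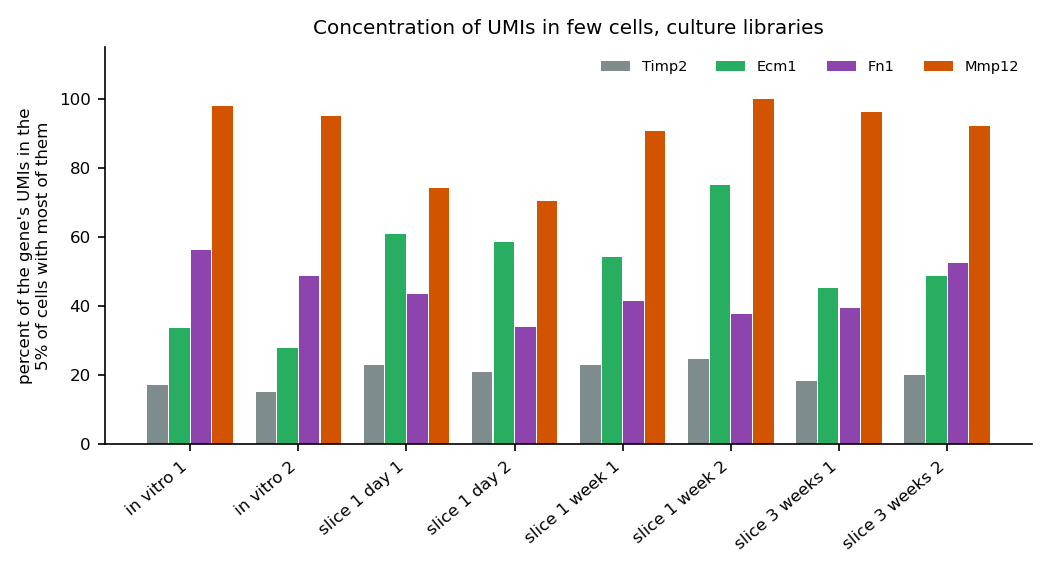
Percent of the UMIs of 4 genes that lay in the 5% of cells holding most of them, in the 8 culture libraries. *Mmp12* was the most concentrated in each library, at 70.5% or more, and *Timp2* the least. A gene found in under 5% of cells reaches 100% by construction, as *Mmp12* did in slice 1 week replicate 2.

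Promoter sequences of the members were looked at. RefSeq windows on GRCm38.p6, taken as the 250 bases before a gene's start, were found for 6 of the 8 members: *Sparc*, *Olfml3*, *Ecm1*, *Mmp12* (with 2 starts), *Mmp14* and *Timp2*. Motifs were searched on both strands, namely TGANTCA, the AP-1 motif bound by Jun and Fos proteins, GAGGAA, a core of PU.1 sites in macrophage genes, and CACGTG, the E-box. They occur in 6.75%, 23.3% and 6.02% of 32851 windows of that length. TGANTCA was found in the window of *Ecm1*, 64 bases before the start, and in that of the downstream start of *Mmp12*, 44 bases before it. GAGGAA was found at the upstream start of *Mmp12*, 86 bases before it. The 2 windows with the AP-1 motif are shown, with the motif in capitals, and were picked for holding it. *Ecm1* and *Mmp12* were low in adult and rose in every culture. So did *Fn1*, for which no window was found, and the upstream window of *Mmp12* held no AP-1 match. A link between the motif and these rises was not tested. *Ecm1* lies at chr3:95734147-95739569 on the minus strand, and its window at chr3:95739570-95739819. *Mmp12* lies at chr9:7344381-7369499 on the plus strand, and its window at chr9:7347124-7347373, inside the gene and outside its exons. The match is a description of these letters and was not tied to binding.
Ecm1: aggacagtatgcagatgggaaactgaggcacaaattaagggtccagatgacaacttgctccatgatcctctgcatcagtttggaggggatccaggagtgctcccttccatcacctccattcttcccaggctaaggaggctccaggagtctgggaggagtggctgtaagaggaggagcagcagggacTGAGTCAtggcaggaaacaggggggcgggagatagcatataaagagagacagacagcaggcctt
Mmp12: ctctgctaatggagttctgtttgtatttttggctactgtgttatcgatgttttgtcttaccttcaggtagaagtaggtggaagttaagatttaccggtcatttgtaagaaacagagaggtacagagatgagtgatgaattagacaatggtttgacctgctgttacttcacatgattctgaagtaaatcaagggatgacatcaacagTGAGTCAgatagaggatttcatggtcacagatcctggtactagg

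*Mmp14* encodes a metalloproteinase anchored in the cell membrane. It was 19.6 and 22.4 CPM in adult, and 54.6 and 44.5 *in vitro*. In slices it was 31.5 and 25.04 on day 1, 37.6 and 33.3 after 1 week, then 12.03 and 23.2 after 3 weeks. Both *in vitro* libraries were above all others, and slice 3 weeks overlapped adult. *Mmp14* rose *in vitro* against adult (log2 fold change 1.24 ± 0.26, adjusted p = 0.00198) and against slice 3 weeks (1.45 ± 0.26, adjusted p = 0.00156), each in 23 of 23 alternatives. In slices it did not pass at 1 day (0.41 ± 0.27, adjusted p = 0.212), 1 week (0.78 ± 0.35, adjusted p = 0.116) or 3 weeks (−0.21 ± 0.26, adjusted p = 0.551). At 1 day a rise was called in 1 of 23 alternatives, as UMIs per cell not scaled for depth (1.97, adjusted p = 4.76e-07). At 1 week a rise was called in 5 of 22 alternatives, namely with no filter on low counts (adjusted p = 0.0315), with only the 2 groups compared (0.0233), without slice 3 weeks replicate 1 (0.0318) or replicate 2 (0.0310), and as UMIs per cell not scaled for depth (1.72e-05). The sign at 3 weeks differed between the study labels (−0.71 and 0.050), a fall was called without slice 3 weeks replicate 2 (−0.74, adjusted p = 0.0265), a rise was called as UMIs per cell not scaled for depth (0.85, adjusted p = 0.0348), and the value was positive but not called without replicate 1 (0.19). Border macrophage markers were also highest *in vitro*, and their part in the value of *Mmp14* was not tested.

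*Timp2* encodes an inhibitor of metalloproteinases that, with MMP14, also takes part in the activation of MMP2. In cells thinned to 1800 UMIs it was found in 61.3% and 66.4% of adult cells and 39.2% and 49.5% of *in vitro* cells (79.0% and 64.4%, and 91.1% and 95.9%, at full depth). Its level was 511 and 526 CPM in adult and 342 and 452 *in vitro*. In slices it was 253 and 259 on day 1, 448 and 496 after 1 week, then 735 and 735 after 3 weeks. The slice times rose in order without overlap, and only slice 1 week and *in vitro* overlapped among neighbours. It was lower at 1 day than in adult (−1.02 ± 0.16, adjusted p = 0.000387) and rose from 1 day to 3 weeks by 1.52 ± 0.16 on the log2 scale (adjusted p = 0.000195). Without cells with markers of another type neither call was made (−0.57, adjusted p = 0.111, and 1.11, adjusted p = 0.0509). At slice 3 weeks it was 0.50 ± 0.16 above adult with an adjusted p of 0.0265, which did not reach the fold change of 1.5 that a call requires. A rise was called there as UMIs per cell not scaled for depth (1.61, adjusted p = 0.000166). *In vitro* the value was −0.38 ± 0.16 (adjusted p = 0.0587), and a fall was called by library size alone (−0.69, adjusted p = 0.00416) and without cells with markers of another type (−0.64, adjusted p = 0.0181). *In vitro* was below slice 3 weeks (−0.89 ± 0.16, adjusted p = 0.00165). That call was lost without *in vitro* replicate 1 (−0.62, adjusted p = 0.0512), with adjusted p from 3.56e-07 to 0.681 over 23 alternatives. Per cell, without scaling for depth, the signs turned: 1.80 *in vitro*, 0.54 at 1 day and 1.06 at 1 week against adult, and 0.19 for *in vitro* against slice 3 weeks.

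*Thbs1* encodes thrombospondin 1, which binds CD36 and CD47 and activates latent TGF-β. It was scarce, at 1.46 and 0.644 CPM in adult, 8.41 and 17.3 *in vitro*, 11.8 and 27.6 at slice 1 day, 4.94 and 5.12 at 1 week (5 and 2 UMIs) and 0.259 and 2.56 at 3 weeks (2 and 55 UMIs). Slice 1 day overlapped *in vitro*, and slice 3 weeks overlapped adult. Against adult it rose *in vitro* (3.49 ± 0.69, adjusted p = 0.00157) and at 1 day (4.16 ± 0.71, adjusted p = 0.000668). It was not shown to differ at 1 week (2.13 ± 1.39, adjusted p = 0.281) or 3 weeks (0.60 ± 0.81, adjusted p = 0.587), and the 3 weeks value was −2.05 without replicate 2. A rise was called at 1 week with no filter on low counts (2.06, adjusted p = 0.0218), and as UMIs per cell not scaled for depth at 1 week (3.28, adjusted p = 0.000477) and at 3 weeks (1.51, adjusted p = 0.00857). *In vitro* against slice 3 weeks the value was 2.89 ± 0.63 (adjusted p = 0.00491), and from 1 day to 3 weeks *Thbs1* fell (−3.55 ± 0.65, adjusted p = 0.00295). Without cells with markers of another type the value at 1 day was 0.49 (adjusted p = 0.925) and that from 1 day to 3 weeks 0.16 (adjusted p = 0.993), so neither was called.

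At slice 1 day, a large share of *Thbs1* was found in neutrophil-like cells. They were 56 of 518 cells and 105 of 1014 cells, and held 20 of 45 and 134 of 268 of its UMIs. The level was 134 and 183 CPM in them, against 7.12 and 15.2 in the other cells. *Sparc*, *Olfml3*, *Fn1*, *Mmp12*, *Mmp14* and *Timp2* were all lower in the neutrophil-like cells of both libraries. Without these cells *Thbs1* at 1 day was still above adult (3.30, adjusted p = 0.00226), with adjusted p up to 0.925 over 23 alternatives. It lost its call in 1 of them, which removed cells with 2 or more markers of another type and kept no cell of slice 1 day replicate 2.

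The tests of the 7 genes are summed up by comparison, beside the share of all 12157 genes that was called under the same rule (adjusted p under 0.05 and a fold change over 1.5). *In vitro* against adult, 5 of 7 rose and 1 fell, where 50.8% of all genes were called, 22.4% as higher and 28.5% as lower. Slice 1 day against adult, 4 rose and 2 fell (50.2% of all genes, 24.9% higher and 25.3% lower). Slice 1 week against adult, 3 rose and 1 fell (28.6%, 15.0% higher and 13.6% lower). Slice 3 weeks against adult, 3 rose and none of the 7 fell (35.4%, 17.9% higher and 17.5% lower). *In vitro* against slice 3 weeks, 2 were higher and 4 lower (33.2%, 13.3% higher and 19.9% lower). From slice 1 day to 3 weeks, 2 rose and 1 fell (26.7%, 13.9% higher and 12.8% lower). The members were chosen with earlier results known, so nothing is read from these counts. The 4 comparisons against adult share their 2 control libraries.

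**Figure D5:**
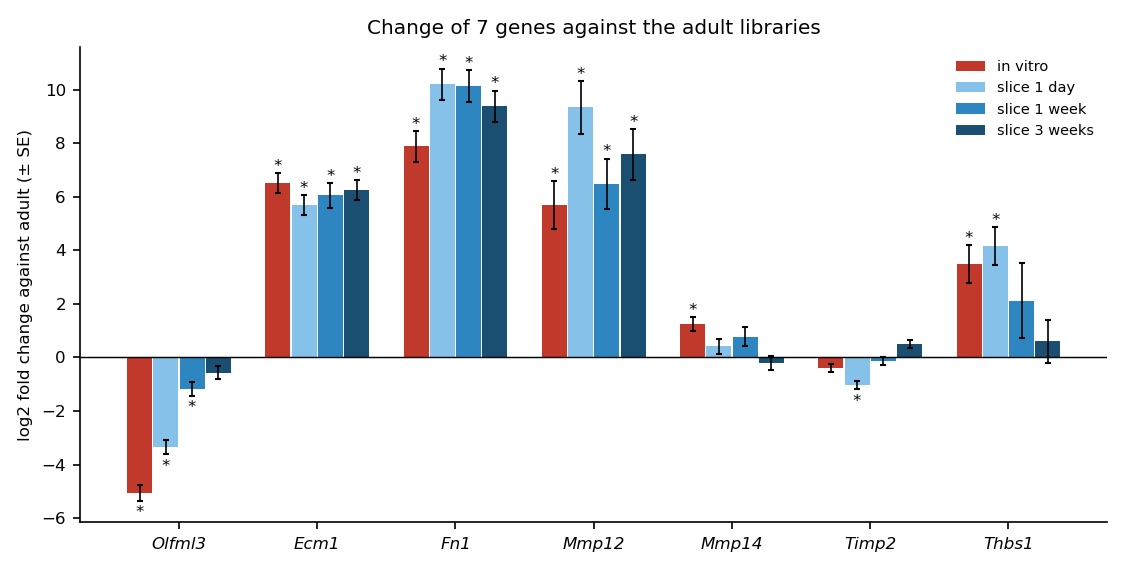
Log2 fold change against adult of the 7 tested genes in the 4 culture groups, with SE bars from the edgeR fit. Stars mark adjusted p under 0.05 with a fold change over 1.5. *Ecm1*, *Fn1* and *Mmp12* carry stars in all 4 groups, and *Olfml3* in all but slice 3 weeks.

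Beyond the 8 genes, 181 other matrix genes in 6 roles were listed, of which 85 were in the fit. *In vitro* against adult, 31 rose and 29 fell, with a median log2 fold change of 0.04 beside −0.11 for all genes, and 70.6% of the 85 were called beside 50.8% of all genes. At slice 1 day 37 rose and 20 fell (median 0.66 beside −0.06), at 1 week 30 rose and 10 fell (0.88 beside −0.08), and at 3 weeks 39 rose and 14 fell (0.82 beside −0.03). *In vitro* against slice 3 weeks, 17 were higher and 35 lower (−0.74 beside −0.10), and from 1 day to 3 weeks 24 rose and 23 fell (0.00 beside 0.05). The called share of the 85 was 67.1% at 1 day, 47.1% at 1 week and 62.4% at 3 weeks against adult, beside 50.2%, 28.6% and 35.4% of all genes. It was 61.2% for *in vitro* against slice 3 weeks and 55.3% from 1 day to 3 weeks, beside 33.2% and 26.7%. The roles are read against the same shares of all genes. By role, 9 of the fitted genes were protease inhibitors, with a median of −2.68 *in vitro* (3 rose, 5 fell), 1.87 at 1 day (4 rose, 3 fell), 1.35 at 1 week (3 rose, 1 fell) and 2.92 at 3 weeks (5 rose, 2 fell). The 12 matricellular and secreted glycoproteins had medians of 2.81 at 1 day and 2.84 at 1 week, with 7 rising each time and 1 and 0 falling. Their medians were 0.99 at 3 weeks (6 rose, 1 fell) and 1.08 *in vitro* (5 rose, 2 fell). In the other 4 roles, 14 structural matrix genes, 17 metalloproteinases and plasminogen activators, 14 crosslinking and collagen processing genes and 19 receptors, the medians against adult lay between −0.90 and 0.94.

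*In vitro*, the falls among these genes that were largest at a sufficient level were *Col27a1*, a fibrillar collagen (0.12 ± 0.0115, SD, against 65.0 ± 12.8 CPM in adult, n = 2 libraries each, adjusted p by edgeR = 2.44e-08), and *Spint1*, an inhibitor of serine proteases (0.413 ± 0.505 against 128 ± 18.3, adjusted p = 6.79e-07). *Col27a1* fell in every slice comparison with adult too, with log2 fold changes of −4.32, −2.70 and −3.40 at 1 day, 1 week and 3 weeks. The largest rises *in vitro* were *Cd36*, a receptor of thrombospondin 1 (234 ± 67.5 against 0.312 ± 0.0768), and *Emilin2*, an elastic fibre glycoprotein (25.3 ± 2.19 against a single adult UMI, a ratio of 544 with a counting interval of 97.4 to 21487). *Emilin2* rose at slice 3 weeks as well (7.61 ± 1.42, adjusted p = 0.00193), with a spread between libraries (9.98 ± 11.9) larger than its mean. *Cd36* (4.60 ± 0.22) and *Mrc1*, a collagen-binding receptor that is also in the list of border macrophage markers (4.96 ± 0.29), led the rises *in vitro* over slice 3 weeks. *Spint1* (−7.23 ± 0.52) and *Slpi* (−8.69 ± 1.87, from 1 UMI *in vitro*) led the falls.

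At slice 1 day, *Mmp9*, a gelatinase (96.9 ± 1.23 CPM), and *Slpi*, an inhibitor of leukocyte proteases (74.9 ± 18.8), led the rises and were at 0 in both adult libraries. The adult floor of 3 counts over the group puts their means at least 692-fold and at least 535-fold higher. *Slpi* and *Mmp8*, the neutrophil collagenase, led at 1 week from replicate 1 alone (232 and 145 CPM), the library with 40767 CPM of neutrophil markers, and both were at 0 in replicate 2. *Slpi* led again at 3 weeks, at 2.20 and 16.1 CPM. The neutrophil-like cells held most of these transcripts at 1 day, and 32.7% of the *Mmp9* UMIs and 31.4% of the *Slpi* UMIs were left without them. *Serpinf1* (−3.49 ± 0.50 at 1 day, −2.99 ± 0.46 at 3 weeks), a secreted serpin, and *Tgm2* (−3.45 ± 0.72 at 1 week), a transglutaminase, were among the falls. From slice 1 day to 3 weeks, *Serpine2* (1.79 ± 0.15), an inhibitor of thrombin and plasminogen activators, rose, and *Mmp8* (1 UMI left) and *Mmp9* (9 UMIs left) fell.

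Likeness was measured as Pearson's r of log2(CPM + 1) over the 10 libraries, which share groups and depth, among genes with an average log2 level of at least 5. *Sparc* was most like *Xlr* (0.989), *Serpine2* (0.989) and *Plpp1* (0.984), and *Olfml3* most like *Havcr2* (0.980) and *Tnfrsf21* (0.977). *Ecm1* was most like *Fxyd5* (0.994), *Plin3* (0.993) and *Sepw1* (0.992), *Fn1* most like *Cd72* (0.979), *Klf10* (0.979) and *Rplp0* (0.977), and *Mmp12* most like *Cdkn1a* (0.990), *Mif* (0.974) and *Atf3* (0.972). *Mmp14* was most like *Otulin* (0.964), *Smpdl3a* (0.933) and *Ddx3x* (0.930), *Timp2* most like *Syngr1* (0.975), *Mpc1* (0.966) and *Vkorc1* (0.960), and *Thbs1* most like *Sfr1* (0.937), *Mrpl35* (0.928) and *Cdc34* (0.917). Among the members, *Sparc* and *Olfml3* had 0.920, *Ecm1* and *Fn1* 0.902, and *Fn1* and *Mmp12* 0.870. The lowest value was that of *Olfml3* and *Thbs1* (−0.843).

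The remaining genes lie on the mouse chromosomes as follows, by the GENCODE annotation of GRCm38. *Sparc* is at chr11:55394500-55423183, *Olfml3* at chr3:103722222-103738001, *Fn1* at chr1:71585520-71653200 and *Timp2* at chr11:118301069-118355740, all on the minus strand. *Mmp14* is at chr14:54431612-54445364 and *Thbs1* at chr2:118111876-118127133, both on the plus strand. Another gene overlaps 5 of the members. *Apol7d*, antisense to the start of *Fn1*, had 62 UMIs in all libraries beside 15033 for *Fn1*. *Mir7014* (in *Ecm1*), *Mmp1b* (antisense to the end of *Mmp12*), *Cep295nl* (in an intron of *Timp2*) and *Gm29233* (antisense to *Thbs1*) had no row in the tables used here.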

How the data were processed

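Single cell libraries were prepared by the authors with the 10x Genomics 3' v2 kit and processed, per the labels, with Cell Ranger 1.3.0 on mm10. The annotation release is not given in the sources used here. The deposited values are raw UMI counts, with genes and barcodes in 1 table per library, and the alignment, cell calling and UMI collapsing behind them can lose reads that map to more than 1 gene.

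Of 19637 barcodes, 19059 were kept with at most 5% mitochondrial UMIs, at least 400 genes and at most 30000 UMIs, and no doublet caller was run. Counts were summed per library and tested in edgeR 4.0.16 (glmQLFit and glmQLFTest, TMM scaling) with all 5 groups in 1 model, after filterByExpr at a minimum count of 10, with Benjamini-Hochberg adjustment over 12157 genes. The script was tested on simulated data. The study calls the libraries of a group independent samples, but the sources used here do not say which animals or cultures each came from. The p-values are therefore set against a spread between libraries. It was taken within groups and estimated jointly over all 5 groups, so libraries outside a comparison also enter its p-value. An exact permutation test of 2 against 2 libraries cannot go below 0.333 and was not used. Cells were thinned to 1800 UMIs for per-cell values, which left 16910 cells. Adult replicate 1 and slice 3 weeks replicate 1 carry another study label than the other 8 libraries. Alternatives were DESeq2 1.42.0, other scalings, filters, subsets of libraries and covariates. Values per cell not scaled for depth, and those without neutrophil-like cells or without both slice 1 week libraries, were chosen after seeing the data.

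The members and the lists were chosen with earlier results of these data known. Named genes were the 8 members, per comparison the 2 called rises and 2 called falls of the matrix list largest in log2 fold change at an average log2 level of at least 4, and the 3 genes most like each member. Some genes that this rule names are not reported here.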

Additional observations from a re-analysis of the deposited data

Results flagged for a closer look

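The values of *Mmp14* and *Timp2* against adult had opposite signs in the 2 cultures of 3 weeks, and the difference between those cultures was itself tested. *Mmp14* was 1.24 above adult *in vitro* and 0.21 below it at slice 3 weeks on the log2 scale, and *in vitro* lay above slice 3 weeks by 1.45 ± 0.26 (SE, adjusted p by edgeR = 0.00156). *Timp2* was 0.38 below adult *in vitro* and 0.50 above it at slice 3 weeks, and *in vitro* against slice 3 weeks it was −0.89 ± 0.16 (adjusted p = 0.00165). Of the 4 values against adult, 1 was called, the rise of *Mmp14* *in vitro*, and the sign of *Mmp14* at slice 3 weeks turned without replicate 1 (0.19). Both *in vitro* libraries were above both slice 3 weeks libraries for *Mmp14*, and below them for *Timp2*. The difference for *Timp2* was −0.62 without *in vitro* replicate 1. As UMIs per cell not scaled for depth, the opposite signs were not seen. *Timp2* then lay above adult in both cultures (1.80 *in vitro* and 1.61 at slice 3 weeks), with 0.19 between them, and *Mmp14* at slice 3 weeks was 0.85.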

How the results depend on the processing

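Of 1096 log2 fold changes of the members under alternatives, 1021 kept their direction and, where tested, their side of the threshold. Of the members' group levels, 64 moved by more than the SD of their libraries and 122 did not. Removing cells with 2 or more markers of another type left no cell of slice 1 day replicate 2 and slice 1 week replicate 1 and few *in vitro* cells, so fewer libraries and counts, and gave 27 matrix genes at slice 1 day and 12 at slice 1 week against adult, and 1 member and 8 matrix genes from 1 day to 3 weeks, where *Thbs1* turned to 0.16. From 1 day to 3 weeks, 6 members were called with no filter on low counts, 5 with only the 2 groups compared and 6 as UMIs per cell not scaled for depth, which also called 6 at slice 3 weeks against adult. That scale moved the median of all genes by −0.46 to 2.15. On it *Timp2* turned to 1.80 *in vitro*, 0.54 at 1 day and 1.06 at 1 week against adult and to 0.19 for *in vitro* against slice 3 weeks, and at slice 3 weeks against adult *Olfml3* turned to 0.53 and *Mmp14* to 0.85. *Mmp14* there was 0.050 with the second study label only. The cause of these shifts was not tested. The mean of *Sparc* at slice 3 weeks, 88.2% of adult, was 90.7% without cells with markers of another type, 76.8% by library size alone, 79.4% in cells thinned to 1800 UMIs and 77.2% at 1000 UMIs.

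Leaving out 1 library, which assumes that a lone library varies like the other groups, gave 2 to 5 members and 16 to 41 matrix genes at slice 1 week (lowest without slice 1 week replicate 1), and 3 to 5 members and 25 to 49 matrix genes from 1 day to 3 weeks (lowest matrix count without slice 1 day replicate 2). At slice 3 weeks against adult, *Mmp14* ranged from −0.74 to 0.19 and *Thbs1* from −2.05 to 1.46. Over all genes, in place of 3472, 4034 and 3246 calls, there were 1446 at 1 week without slice 1 week replicate 1, 2451 for *in vitro* against slice 3 weeks without *in vitro* replicate 2, and 1440 from 1 day to 3 weeks without slice 1 day replicate 2. Without cells with markers of another type they were 2417 at 1 day and 971 at 1 week against adult, 2630 for *in vitro* against slice 3 weeks and 231 from 1 day to 3 weeks. Per cell they were 10338 *in vitro*, 5512 at 1 week and 7136 at 3 weeks against adult, and 7076 for *in vitro* against slice 3 weeks.

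Replicate numbers did not pair the libraries (correlations of −0.135 to 0.123 over 10 pairs of groups). With the replicate block, members called were 6, 6, 4, 3, 5 and 3 and matrix genes 59, 59, 39, 53, 54 and 47, in the order of the comparisons above, and *Mmp12* *in vitro* against slice 3 weeks had an adjusted p of 0.0518. Leaving out both slice 1 week libraries gives no value at 1 week. Depth limits the adult values of *Ecm1*, *Fn1*, *Mmp12* and *Thbs1*, which rest on 6 to 26 UMIs, and the 1 week values, which rest on 209 cells.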
